A study of Mus musculus with 109 samples.

Results

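The retinas described here are the 13 wild-type (WT) retinas labelled batch 1 that received phosphate-buffered saline (PBS) alone and were collected 14 or 35 days later, out of 109 retinas in the series. The rule that picks them uses the sample labels for genotype, batch, treatment and day. There were 7 retinas at day 14 (3 female, 4 male) and 6 at day 35 (3 female, 3 male), from 12 mice. The study injected the cytokines TNF and IL1A into the vitreous of mouse eyes to examine the death of retinal ganglion cells (RGCs), the neurons whose axons form the optic nerve, and PBS eyes served as its vehicle controls. Whole-retina polyA RNA was sequenced 2, 14 or 35 days after injection by the time labels, which are used here, although the extraction text of every sample speaks of collection at 2 days. The question taken up here is how the vehicle-injected retina itself differed between the later days.

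All 13 retinas came from C57BL/6J mice, adults of 2 to 6 months, with no transgene, and 1 injection of PBS through the sclera was the only intended insult to that eye. At day 14, 4 of the mice also gave a TNF retina from the other eye and 1 mouse had received PBS in both eyes, so that replicates 2 and 3 of day 14 are the left and right eye of 1 male. At day 35 all 6 mice also gave a TNF retina from the other eye. The day 2 PBS retinas, given below for comparison, came from other mice. Many of those mice also gave a TNF, IL1A or IL1A plus TNF retina from the other eye. The day 35 males carry the mouse numbers 59730, 59732 and 59736 and the day 35 females 59894, 59895 and 59896, so that at this day sex and the series of mouse numbers cannot be told apart. Time since injection and age at collection also cannot be told apart, since no uninjected retina was measured. In whole tissue, fewer cells of a type and less RNA per cell cannot be told apart either.

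A needle passed through the wall of the eye injures it, and the retina responds through its glia. Müller cells and astrocytes raise intermediate filaments and secreted acute-phase proteins, and microglia and infiltrating macrophages raise complement and antigen presentation genes. Stressed photoreceptors are known to release endothelin 2 and to raise fibroblast growth factor 2, signals that act on Müller cells. Such responses are known to wane over days to weeks after a single insult.

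Between 30095033 and 40090639 read pairs were counted on genes in the day 14 retinas and between 35342329 and 42486918 in the day 35 retinas, so that 10 reads equal at most 0.332 CPM, that is, counts scaled to a common library total. Levels are given in CPM after scaling by trimmed mean of M-values (TMM), as the lowest, median and highest retina of a group. Day 35 and day 14 were compared with limma on voom weights, with terms for group and sex and the mouse as a block, and a gene was called when its adjusted p (false discovery rate, FDR) was under 0.05. Of 18721 genes tested, limma called 2322. Of these, 1117 were higher at day 35 (5.97% of the genes tested) and 1205 were lower (6.44%). Scaling by library size alone changed this split from 48.1% higher to 27.5% higher, with 586 higher and 1544 lower. The genes that fell did so by more: the median log2 fold change was −0.44 among those that fell and 0.18 among those that rose, and 157 of the 164 called genes with a change of at least 1 on the log2 scale were lower. Over all genes tested the median was −0.01. When all 44 PBS retinas of batch 1 were fitted, with those of day 2 and without the mouse block, limma called 823 genes, and the counts of this fit are also given beside the main lists. Every day 35 retina lay below every day 14 retina for 277 genes (1.48%) and above for 304 genes (1.62%).

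Transcripts that mark neighbouring tissues differed among the retinas, and the sums of some of these lists tended to be lower at day 35. The summed level of 12 pigment epithelium and melanocyte genes was 551, 633, 285, 316, 64.3, 83.5 and 413 CPM in replicates 1 to 7 of day 14. It was 118, 235, 107, 62 and 78.2 CPM in replicates 1 to 5 of day 35 and 215 CPM in replicate 6. The sum was thus high in 5 of the 7 day 14 retinas, and no gene of this list passed the test, with 3 of 12 at an unadjusted p under 0.05 in limma. DESeq2 called 6 of them as lower, and limma called 5 and 4 without day 14 replicates 5 and 6, in which the sum was low. The summed level of 11 fibroblast and collagen genes was 137 to 314 CPM at day 14 and 120 to 176 CPM at day 35, and 4 of the 11 passed as lower, among them Col1a1 (log2 fold change −0.94, FDR 0.0415) and Col1a2 (−1.09, FDR 0.0403), which encode the chains of type I collagen. The count for this list ranged from 1 to 8 with single retinas left out, 1 without day 35 replicate 3 and 8 without day 14 replicate 5, and the calls of both collagen genes were lost without any of 8 or more of the 13 retinas. Lens genes summed to 3.07 to 54.9 CPM at day 14 and 2.5 to 76.3 CPM at day 35, and none of 15 passed in limma (2 at an unadjusted p under 0.05, and 1 called by DESeq2). Whether these transcripts came from neighbouring tissue, and their part in the results below, was not tested directly. Counts with a term for the fibroblast list in the fit, added after the data were seen, are given beside the main lists. Over all 18721 genes tested this fit called 1786, with 898 higher and 888 lower at day 35.

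**Figure D1:**
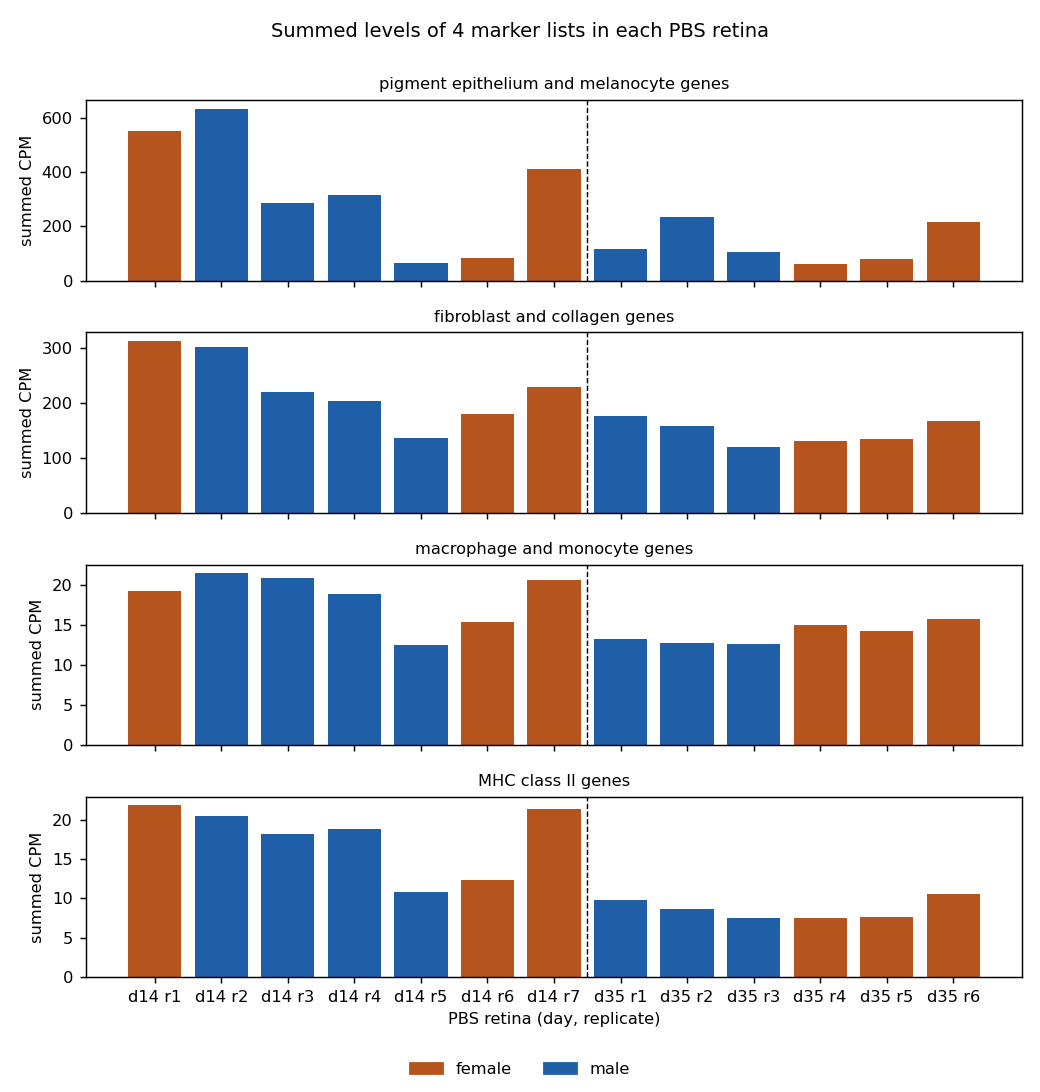
Summed CPM (vertical axes, from 0) of 4 marker lists in each of the 13 PBS retinas, labelled by day and replicate, with females in brown and males in blue. The pigment epithelium and melanocyte sum ranges from 64.3 to 633 CPM at day 14 and from 62 to 235 CPM at day 35, and MHC class II genes sum to 10.8 to 21.8 CPM at day 14 and 7.5 to 10.5 CPM at day 35.

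Edn2, which encodes endothelin 2, had the largest fall of the called genes with a mean of at least 1 CPM. Its level was 12.9, 16.3 and 45.3 CPM (lowest, median and highest) at day 14 and 2.17, 3.77 and 5.42 CPM at day 35. Every day 35 retina was below every day 14 retina, and the highest level of all was in the male replicate 5 of day 14. The log2 fold change was −2.67 (SE 0.36, FDR 4.67e-05), a level 6.35-fold lower at day 35. In the 31 PBS retinas of day 2, which were not part of this test, it had been 16.2, 51.9 and 100 CPM.

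Other factors of the photoreceptor and Müller cell injury response fell with it. Among 14 growth factors and receptors of retinal injury, 5 fell and 1 rose, with a median log2 fold change over the list of −0.09. Fgf2, which encodes fibroblast growth factor 2, was at 7.96, 10.4 and 15.2 CPM at day 14 and 2.91, 4.81 and 7.42 CPM at day 35. Again no retina of day 35 reached the lowest of day 14, and the log2 fold change was −1.18 (SE 0.19, FDR 0.000255). Its exons overlap those of Nudt6 on the opposite strand by 640 bases, and Nudt6 fell too (−0.90, FDR 3.1e-05). The strand setting of the counting is not given in the sources used here, so the reads of this pair cannot be told apart.

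Some of the genes in this list that act for gp130 cytokines also fell, but Il6st, which encodes gp130 itself, was not called. Osmr, the receptor subunit for oncostatin M, changed by −0.80 (FDR 0.00333), Stat3, the transcription factor activated by these cytokines, by −0.44 (FDR 0.00113), and Socs3, the feedback inhibitor that STAT3 induces, by −0.89 (FDR 0.00479). The groups did not overlap for any of these 3 genes. Bdnf, a neurotrophin, was the gene of the list that rose, from 7.23, 10.4 and 11.9 CPM to 11.2, 14.2 and 17.2 CPM (0.48, FDR 0.00516), and its groups overlapped. As with Fgf2, its reads cannot be told apart from those of an antisense gene, which its exons overlap by 896 bases. The log2 fold change of Bdnf ranged from 0.09 to 0.86 over the alternative fits. The call was lost with females alone (FDR 0.762) and kept with males alone. With a term for the fibroblast list, limma called 5 genes of this list as lower and 2 as higher, and with all 44 PBS retinas 1 as lower and 1 as higher.

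Reactive astrocyte genes were lower at day 35. Of 13 pan-reactive genes, 8 fell and none rose, with a median log2 fold change of −0.72, and the day 35 retinas lay below the day 14 retinas without overlap for 7 of the 13. Gfap, the intermediate filament that marks reactive astrocytes and Müller cells, was at 22.6, 35.4 and 46.5 CPM at day 14 and 12.2, 16.1 and 19.6 CPM at day 35 (log2 fold change −1.20, SE 0.23, FDR 0.00138). Serpina3n, a secreted protease inhibitor of the acute phase, was at 22.9, 45.8 and 77.6 CPM and then 4.29, 8.54 and 20.5 CPM (−2.36, SE 0.48, FDR 0.00194). For both genes the groups did not overlap, although the highest day 35 retina came close to the lowest day 14 retina. At day 2, Gfap had been at 45.3, 91.7 and 166 CPM and Serpina3n at 113, 524 and 1868 CPM.

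With all 44 PBS retinas 3 of the pan-reactive genes were called as lower. Steap4, a metalloreductase, fell from 1.41, 3.01 and 3.6 CPM to 0.653, 0.958 and 1.86 CPM (FDR 0.000315). Lcn2, the siderophore-binding lipocalin 2, fell by 0.90 on the log2 scale (FDR 0.00309) and S1pr3, a receptor for sphingosine 1-phosphate, by 0.50 (FDR 0.00111). The groups did not overlap for S1pr3 and did for the other genes. The median level of Lcn2 had gone from 86.1 CPM at day 2 to 5.43 CPM at day 14, and was 2.83 CPM at day 35. Of 11 A1 astrocyte genes 5 fell (2 with a term for the fibroblast list, 3 without the mouse given PBS in both eyes and 1 with all 44 PBS retinas), and the 2 that rose were Fkbp5 and Amigo2. H2-T23, H2-D1, Serping1 and Gbp2 are among those that fell. They are counted again below in the class I, complement or interferon response lists, so these lists are not separate results. Fkbp5 is also a target of the glucocorticoid receptor, and Amigo2, an adhesion protein, changed by 0.12 (FDR 0.0327), a call that was lost without any of several retinas: the A1 count of genes that rose was 1 without day 14 replicate 1, 4 or 5 and without day 35 replicate 1, 2 or 3. Of 11 A2 genes 2 fell, Tgm1 and Cd14, against 1 with a term for the fibroblast list and 0 with all 44 PBS retinas. Tgm1, a transglutaminase, changed by −2.01 (FDR 0.0297), and its call was lost without day 35 replicate 3 (FDR 0.12), 4 (0.0578) or 5 (0.0534).

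**Figure D2:**
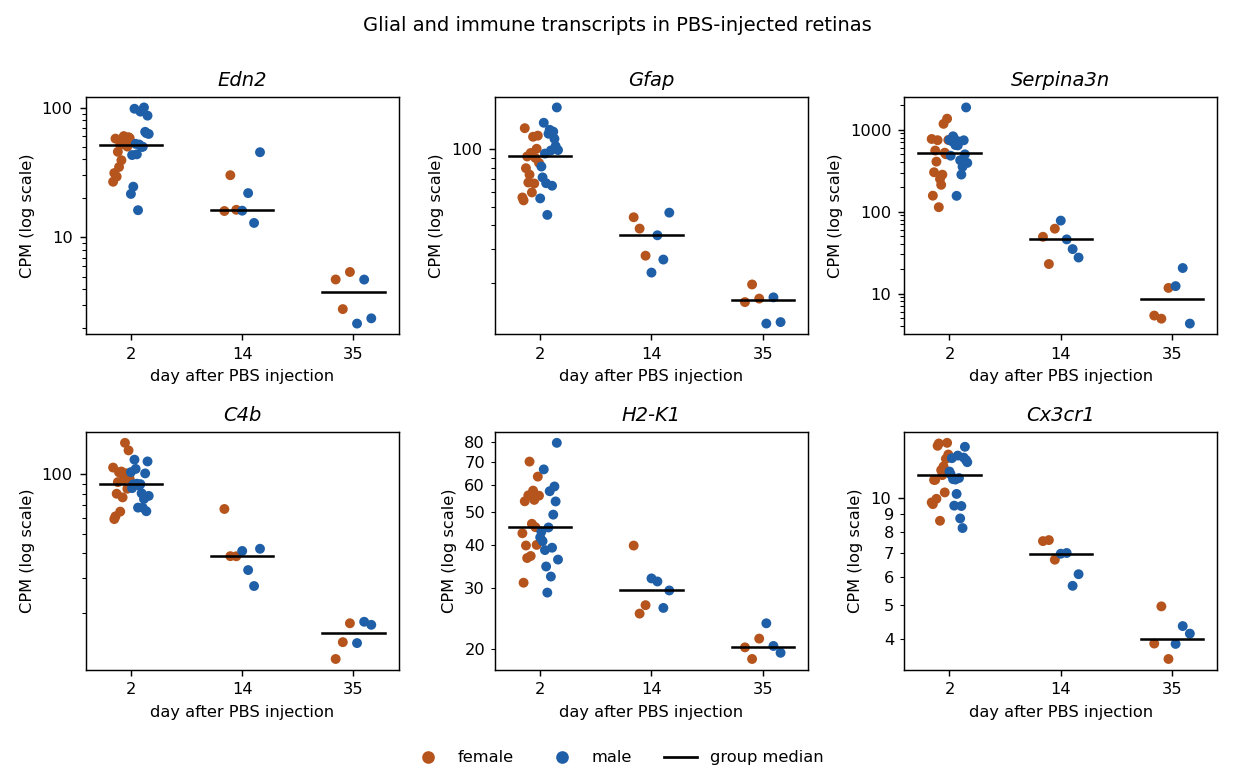
CPM on a log axis of Edn2, Gfap, Serpina3n, C4b, H2-K1 and Cx3cr1 in PBS retinas 2, 14 and 35 days after injection, 1 point per retina (brown for females, blue for males) and a black line at each group's median. The medians step down from day 2 to day 35, and the day 35 points lie below all day 14 points in each of the 6 genes.

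Lists of Müller glia and astrocyte marker genes had few calls. Of 13 Müller glia genes 3 fell, with a median over the list of −0.06, and 1 with a term for the fibroblast list. These were Apoe, a lipid carrier (−0.49, FDR 0.00383), Clu, the secreted chaperone clusterin (−0.45, FDR 0.0151), and Aqp4, the water channel of glial endfeet (−0.22, FDR 0.00789). Glul, the glutamine synthetase of Müller cells, was at 2021, 2489 and 2870 CPM at day 14 and 2315, 2546 and 2704 CPM at day 35 (0.04, FDR 0.721). Rlbp1, the retinaldehyde-binding protein of the visual cycle, also had a small difference (0.02, FDR 0.858). Of 8 astrocyte genes Gfap and Aqp4 fell (1 gene with a term for the fibroblast list and 1 with all 44 PBS retinas), while Pax2, a transcription factor of retinal astrocytes, was at 0.397 to 0.654 CPM at day 14 and 0.388 to 0.803 CPM at day 35 (0.19, FDR 0.609).

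Complement genes fell as well. Of 17 tested, 11 were lower at day 35 and none was higher, and the median over the list was −0.63. C4b, the complement component at which the classical and lectin pathways meet, was at 27.4, 38.7 and 67 CPM at day 14 and 11.7, 15.9 and 18.1 CPM at day 35 (log2 fold change −1.46, SE 0.26, FDR 0.000656). No retina of day 35 came near the day 14 range, whose highest value belonged to the female replicate 1. C3, the central component, was at 3.31, 6.46 and 14.3 CPM and then 1.51, 2.51 and 3.65 CPM (−1.52, SE 0.36, FDR 0.00597), and here the groups overlapped.

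The initiators of the classical pathway followed. C1ra, a C1 protease, changed by −1.35 (FDR 0.000638), and C1qa and C1qb, chains of the recognition molecule C1q, by −0.63 (FDR 0.0201) and −0.75 (FDR 0.0108). Serping1, the C1 inhibitor, fell as well (−1.03, FDR 0.00312). With a term for the fibroblast list 3 complement genes were called, without either eye of the mouse given PBS in both eyes 7 were, and with all 44 PBS retinas 2 were.

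Antigen presentation genes were lower at day 35. Of 11 class I genes of the major histocompatibility complex (MHC), 10 fell and none rose, with a median of −0.70. H2-K1, a classical class I heavy chain, was at 25.3, 29.6 and 39.9 CPM at day 14 and 18.7, 20.3 and 23.8 CPM at day 35 (−0.54, SE 0.12, FDR 0.00287), with no overlap between the groups. B2m, the light chain shared by class I molecules, went from 21, 25 and 37.8 CPM to 14.6, 16.8 and 18.1 CPM (−0.70, SE 0.16, FDR 0.00389), again without overlap. H2-Q4 (−0.78, FDR 0.00148), H2-T23 (−0.71, FDR 0.0123) and H2-D1 (−0.42, FDR 0.00305), other heavy chains, and Tapbp, the loading factor tapasin (−0.37, FDR 0.00108), fell too. Heavy chain genes resemble each other, so the counting could have split their reads, and Tapbp overlaps an antisense gene by 904 bases. With a term for the fibroblast list 6 class I genes were called, and with all 44 PBS retinas 1 was.

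Class II genes, which mark professional antigen-presenting cells, were low and fell in 5 of 7 cases (median −1.35). The summed level of the 7 genes was 10.8, 18.8 and 21.8 CPM at day 14 and 7.5, 8.16 and 10.5 CPM at day 35. The sum was lowest among the day 14 retinas in replicates 5 and 6, the 2 that also had the lowest pigment epithelium sums. H2-Eb1 changed by −1.85 (SE 0.40, FDR 0.00308), H2-Aa by −1.98 (FDR 0.0122), H2-Ab1 by −1.29 (FDR 0.00814) and H2-DMb1 by −1.35 (FDR 0.00297). The first 3 encode chains of the class II molecules and the last a chain of the peptide exchange factor H2-DM. Cd74, the invariant chain, changed by −1.93 (FDR 0.0131). The groups overlapped for all 5, and 2 class II genes were called with a term for the fibroblast list and 0 with all 44 PBS retinas.

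Interferon response genes had 7 of 23 lower and none higher (median −0.55). Ifitm3, a membrane protein that restricts virus entry, changed by −1.28 (SE 0.25, FDR 0.00129), from 6.15, 8.21 and 11.1 CPM to 2.04, 3.58 and 5.44 CPM, without overlap. Bst2, which tethers virus particles (−1.25, FDR 0.00266), Lgals3bp, a secreted galectin ligand (−0.94, FDR 0.00228), Ifi27 (−0.70, FDR 0.00861) and Gbp2, a guanylate-binding protein (−0.88, FDR 0.0175), fell as well. Ifit1 was not called (−0.91, FDR 0.124), and Ifit2 was at 16.5 to 18.4 CPM at day 14 and 16.5 to 19.6 CPM at day 35 (FDR 0.982). The count was 3 with a term for the fibroblast list, 4 without either eye of the mouse given PBS in both eyes, 1 with all 44 PBS retinas and 12 with the 13 PBS retinas alone.

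Promoters of some of these genes are shown because class I and interferon response genes are known to share a type of control element. The core of the interferon-stimulated response element, searched as GAAA, 2 free bases and GAAA on both strands in the 250 bases before the start site of RefSeq promoters (build GRCm38.p6), was in 2.98% of 32851 promoters. It was in those of 2 of 9 class I genes and 10 of 18 interferon response genes that could be matched. Among the latter was Ifit1, which was not called. Whether the element had a part in the falls was not tested. The match is in capitals with 30 bases on either side, 5′ to 3′ on the strand of the gene, for B2m (chr2:122147518-122147587, plus strand), H2-T23 (chr17:36032786-36032855, minus strand) and Gbp2 (chr3:142620574-142620643, plus strand). In H2-T23 and Gbp2 the match is on the other strand and so reads as its reverse complement. A match describes the letters in the window and is not evidence of binding.
B2m: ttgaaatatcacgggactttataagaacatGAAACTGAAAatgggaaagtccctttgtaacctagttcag
H2-T23: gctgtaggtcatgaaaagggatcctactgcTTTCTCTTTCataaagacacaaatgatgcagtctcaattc
Gbp2: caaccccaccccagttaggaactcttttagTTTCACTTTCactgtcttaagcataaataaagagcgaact

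Microglial genes were lower in part. Of 13 homeostatic genes 8 fell and none rose (median −0.44). C1qa, C1qb, C1qc and Itgam are in this list and in the complement list, so these lists are not separate results. Cx3cr1, the fractalkine receptor of microglia, was at 5.66, 6.97 and 7.61 CPM at day 14 and 3.53, 4.03 and 4.96 CPM at day 35 (−0.77, SE 0.16, FDR 0.00287), without overlap. Trem2, a lipid-sensing receptor, changed by −0.85 (FDR 0.0137). P2ry12, a nucleotide receptor, and Tmem119, both defining markers of resting microglia, did not pass (−0.20, FDR 0.355, and −0.18, FDR 0.532). The count of 8 was 5 without day 35 replicate 3, 5 without day 35 replicate 4, 5 without the mouse given PBS in both eyes, 2 with a term for the fibroblast list and 2 with all 44 PBS retinas.

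Of 14 disease-associated microglia genes 6 fell and none rose (median −0.57). Apoe is in this list and in the Müller glia list. Axl, a receptor for the engulfment of dying cells, changed by −0.51 (FDR 0.00194) without overlap. Itgax, an integrin of activated microglia and dendritic cells, went from 0.323, 0.496 and 1.11 CPM to 0.0477, 0.148 and 0.258 CPM (−2.10, SE 0.50, FDR 0.00626), and Cybb, an NADPH oxidase subunit, changed by −1.60 (FDR 0.00965). Cst7 and Lpl, of the same list, had FDRs of 0.488 and 0.239. The count was 3 with a term for the fibroblast list and 1 with all 44 PBS retinas.

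Macrophages, resident or blood-borne, and blood cells left few transcripts at either day. Of 8 macrophage and monocyte genes 3 fell, among them Cd74, which is also counted in the class II list. Mrc1, the mannose receptor of resident macrophages, was at 0.291, 1.09 and 1.86 CPM at day 14 and 0.0265, 0.241 and 0.644 CPM at day 35 (−2.15, FDR 0.0233), a call lost without day 35 replicate 4 (FDR 0.0667) or 5 (FDR 0.0541). Ccr2, the chemokine receptor of monocytes, was at 0 to 0.524 CPM at day 14 and 0 to 0.053 CPM at day 35, against 0.272 to 15.7 CPM at day 2. The summed level of the list was 12.5 to 21.5 CPM at day 14 and 12.6 to 15.7 CPM at day 35, and 0 of its genes were called with a term for the fibroblast list or with all 44 PBS retinas. Neutrophil genes summed to 0.0992 to 0.772 CPM at day 14 and 0.191 to 0.488 CPM at day 35, against 0.734 to 80.5 CPM at day 2, and none passed the filter on low counts. None of 5 T and B cell genes passed the test in limma (0 at an unadjusted p under 0.05), edgeR or DESeq2, and among 5 erythrocyte genes Hba-a2, a globin gene with a near-identical neighbour, was called (−1.13, FDR 0.0354), though not without any of 6 retinas or with a term for the fibroblast list.

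**Figure D3:**
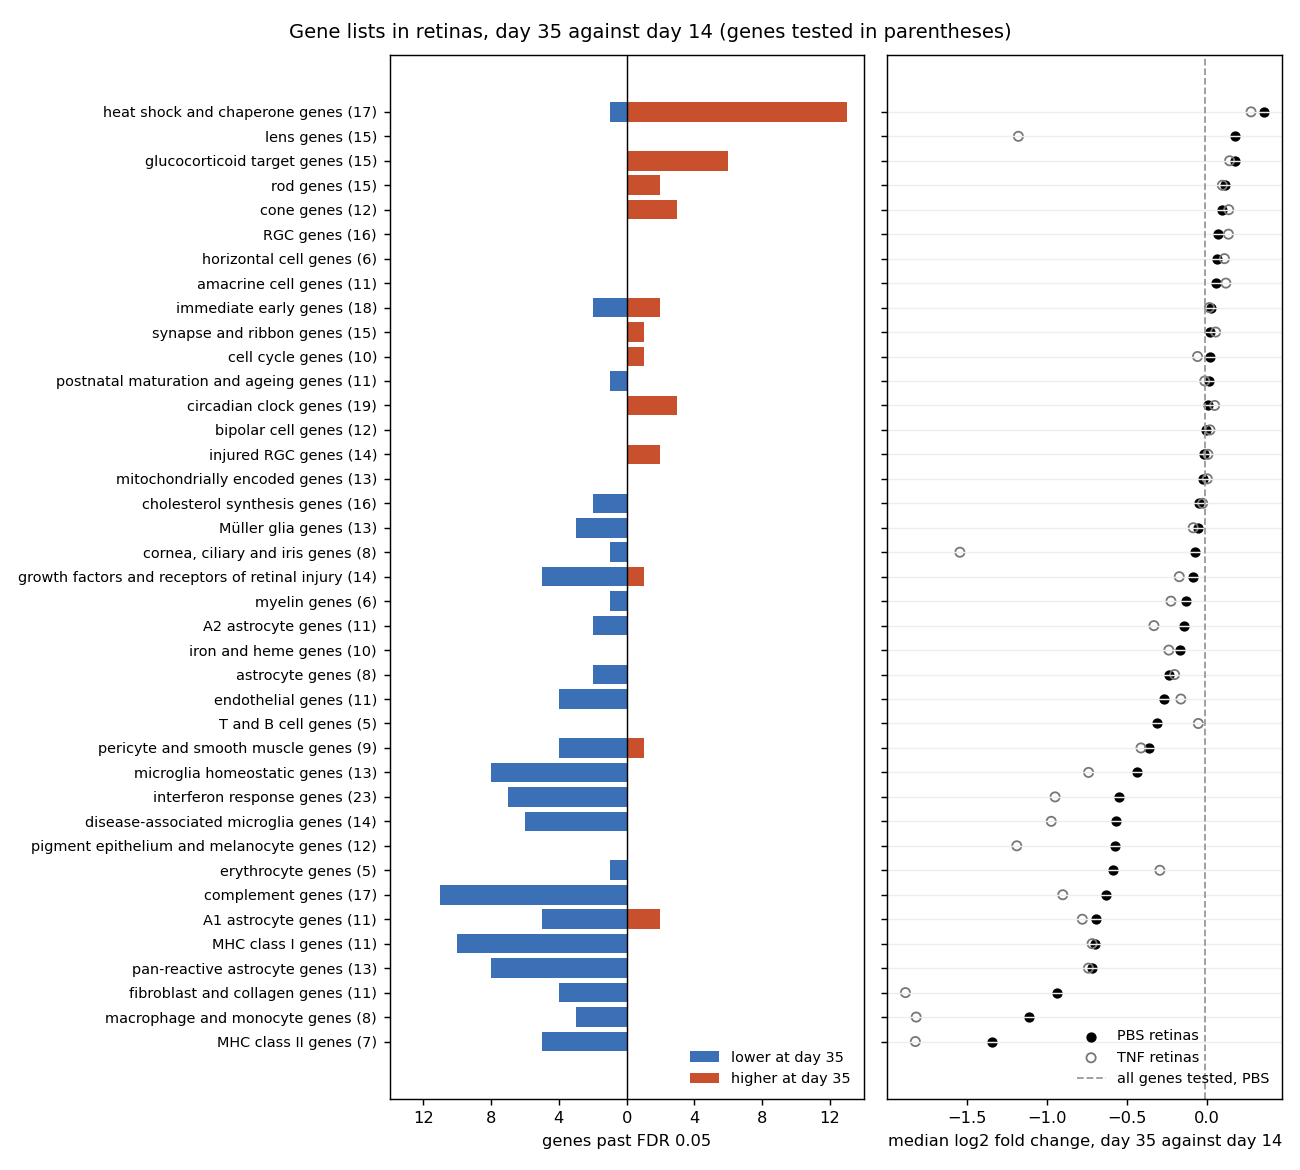
Left, the number of genes of each list with an FDR under 0.05 that were lower (blue, to the left) or higher (red, to the right) at day 35 in PBS retinas, with the genes tested in parentheses. Right, the median log2 fold change of each list in PBS retinas (filled) and in TNF retinas (open), with a dashed line at −0.01, the median of all genes tested in PBS retinas. Complement, MHC class I and pan-reactive astrocyte lists have 11, 10 and 8 genes lower, and the heat shock and chaperone list has 13 genes higher.

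Vascular genes changed in smaller steps. Of 11 endothelial genes 4 fell and none rose. Kdr, the main receptor for vascular endothelial growth factor, which Müller cells and neurons of the retina express as well, was at 224, 246 and 262 CPM at day 14 and 141, 170 and 208 CPM at day 35 (−0.54, SE 0.08, FDR 0.000158), with no overlap. Vwf, the von Willebrand factor (−0.58, FDR 0.016), Cldn5, a tight junction protein (−0.51, FDR 0.0295), and Slco1a4, a transporter of the blood-brain barrier (−0.43, FDR 0.00661), fell too, whereas Pecam1 did not pass (−0.24, FDR 0.0543). The count was 7 without day 14 replicate 5 or without day 35 replicate 6, 2 with a term for the fibroblast list and 1 with all 44 PBS retinas. The call of Cldn5 was lost without any of 5 retinas (day 14 replicates 1 and 2, day 35 replicates 2, 3 and 5), and that of Vwf without day 35 replicate 4 (FDR 0.0517).

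Of 9 pericyte and smooth muscle genes 4 fell and 1 rose. Des, the muscle intermediate filament desmin, fell by 0.75 on the log2 scale (FDR 0.0022). Vtn, vitronectin, which is also made by photoreceptors, rose by 0.18 (FDR 0.0247), and its call was lost without day 35 replicate 1 (FDR 0.0556) or 2 (FDR 0.0554). The count of genes that fell was 1 without day 35 replicate 2 or 5, 2 without day 35 replicate 1 or day 14 replicate 1, 3, 4 or 7, 1 with a term for the fibroblast list and 0 with all 44 PBS retinas.

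The calls among neuronal genes were upward. Over all genes tested, 5.97% were called as higher and 6.44% as lower. Of 15 rod genes 2 rose and none fell (median 0.11). Nrl, the transcription factor that specifies rods, was at 1159, 1217 and 1273 CPM at day 14 and 1203, 1390 and 1508 CPM at day 35 (0.16, SE 0.05, FDR 0.0217). Pde6b, a subunit of the rod phosphodiesterase, went from 2010, 2304 and 2467 CPM to 2428, 2649 and 2772 CPM (0.20, SE 0.05, FDR 0.00555), so that only the highest day 14 retina exceeded the lowest of day 35. The call of Nrl was lost without day 35 replicate 1 (FDR 0.0532) or 2 (FDR 0.0615). With a term for the fibroblast list 1 rod gene and 1 cone gene were called, and with all 44 PBS retinas 0 rod and 2 cone genes.

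Of 12 cone genes 3 rose and none fell (median 0.09). Guca1a, an activator of photoreceptor guanylate cyclase, was at 496, 549 and 628 CPM at day 14 and 613, 684 and 814 CPM at day 35 (0.34, SE 0.05, FDR 0.000218). Cnga3, the cone channel subunit (0.25, FDR 0.0193), and Kcne2, a potassium channel subunit (0.23, FDR 0.0353), rose by less. Their calls were lost without day 35 replicate 3 for Cnga3 (FDR 0.0512) and without any of 6 retinas for Kcne2. Arr3, the cone arrestin, was not called (0.24, FDR 0.0684), but was without day 35 replicate 2 (FDR 0.0353) or day 14 replicate 6 (FDR 0.0343). The short-wave opsin gene Opn1sw had an FDR of 0.693.

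No gene passed in limma among 12 bipolar cell, 11 amacrine cell, 6 horizontal cell and 16 RGC genes (2, 2, 1 and 5 at an unadjusted p under 0.05). DESeq2 called 1 RGC gene as higher and edgeR none, and without day 14 replicate 1 limma called 3 RGC genes as higher and 3 bipolar cell genes as lower. Adding a term for the fibroblast list, it called 1 RGC gene as higher and 2 bipolar cell genes as lower. The lists had median log2 fold changes between −0.01 and 0.07. Rbpms, the RNA-binding protein by which RGCs are counted, was at 29.4, 32.4 and 36 CPM at day 14 and 26.5, 30.3 and 33.6 CPM at day 35 (−0.11, FDR 0.222). Pou4f1, a transcription factor of RGCs, was at 29.9 to 34.9 CPM and then 30.5 to 35.3 CPM (0.05, FDR 0.612). The ranges overlapped for both genes. Of 14 genes induced in injured RGCs, Cdkn1a (0.89) and Ddit3 (0.28) rose. Both calls were lost with females alone and kept with males alone, and that of Cdkn1a was lost with all 44 PBS retinas. The male minus female difference passed for both (1.39 and 0.41), with limits given below. Atf3 (−0.03, FDR 0.898) and Jun (−0.05, FDR 0.666), the transcription factors that mark axon injury, did not pass. Jun had been at a median of 47.8 CPM at day 2 and was at 35.7 CPM at day 14 and 34.7 CPM at day 35. Rims1, a scaffold of the presynaptic active zone, was the gene called among 15 synapse and ribbon genes (0.16, FDR 0.0182), a call lost without day 35 replicate 2 (FDR 0.0557) and with a term for the fibroblast list.

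The genes that rose with the smallest p changed by less than those that fell, but with narrow groups. Fnip2, a partner of folliculin in nutrient signalling, was at 83.3, 98.3 and 104 CPM at day 14 and 118, 131 and 151 CPM at day 35 (0.44, SE 0.05, FDR 1.11e-05). Nptx1, a pentraxin of excitatory synapses, was at 95.1, 97.7 and 104 CPM and then 116, 127 and 139 CPM (0.35, SE 0.04, FDR 1.11e-05). Socs7, of the family of cytokine signalling suppressors, was at 248, 260 and 271 CPM and then 295, 311 and 328 CPM (0.26, SE 0.03, FDR 1.11e-05). In each of these genes every day 35 retina was above every day 14 retina. At day 2 their medians had been 90.6, 95.2 and 270 CPM, near those of day 14.

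Further genes with small p rose as well. Rdh11, a retinol dehydrogenase of the visual cycle (0.36, FDR 2.84e-05), Pcare, which shapes the photoreceptor outer segment base (0.33, FDR 5.11e-05), and Lpcat1, a phospholipid acyltransferase that photoreceptors need (0.34, FDR 4.67e-05), were among them. So were Gabrr1, the rho 1 subunit of the GABA receptors on bipolar cells (0.30, FDR 4.08e-05), Kpna2, a nuclear import receptor (0.31, FDR 3.11e-05), and Dynll1, a dynein light chain (0.35, FDR 8.18e-05). The groups did not overlap for any of the 6.

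Among the genes that fell with the smallest p, Pcolce, the enhancer of procollagen processing, was at 16.8, 18.8 and 27.6 CPM at day 14 and 7.65, 9.18 and 12 CPM at day 35 (−1.11, SE 0.14, FDR 2.84e-05). Btc, the EGF receptor ligand betacellulin, was at 25.2, 27.7 and 31.6 CPM and then 18.9, 20.3 and 23.7 CPM (−0.50, SE 0.06, FDR 3.1e-05). Both fell without overlap, as did Cryzl2 (−1.03, FDR 3.11e-05), Nt5dc1 (−0.63, FDR 8.18e-05), Pbxip1, a partner of PBX and oestrogen receptor proteins (−0.49, FDR 0.000121), and Lactb2, a mitochondrial RNase (−0.34, FDR 0.000147).

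Genes of protein folding rose, and here the retinas of the 2 sexes parted. Of 17 heat shock and chaperone genes 13 rose and 1 fell, with a median of 0.36, the highest of all lists. This list also holds Cirbp and Rbm3, which encode RNA-binding proteins and not chaperones, and the gene that fell was Cirbp. Hspa5, which encodes BiP, the main chaperone of the endoplasmic reticulum (ER), was at 504, 528 and 633 CPM in the day 35 males (replicates 1 to 3) and at 227, 247 and 242 CPM in the day 35 females (replicates 4 to 6). At day 14 it was at 219, 222, 203 and 171 CPM in the males (replicates 2 to 5) and 215, 207 and 224 CPM in the females (replicates 1, 6 and 7). All 3 day 35 males thus stood far above every other retina, while the females of day 35 lay just above those of day 14.

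The log2 fold change of Hspa5 was 0.82 over both sexes (SE 0.16, FDR 0.0015), 0.16 in females and 1.43 in males. A test of the difference between the sexes gave 1.28 (95% interval 1.00 to 1.55, FDR 0.000295 from limma). In a fit of the 13 PBS retinas with day, sex and their interaction, this difference passed for 119 of 18643 genes, 68 with a male minus female difference above 0 (0.365%) and 51 below 0 (0.274%). This fit had no block for the mouse, so both eyes of the day 14 male given PBS in both eyes counted as separate retinas. Among the 17 genes of the heat shock and chaperone list the difference between the sexes passed for 13, 11 above 0 and 2 below. The 2 below were Cirbp and Rbm3. The count of 119 was sensitive to single retinas: it was 43 without day 35 replicate 4, 53 and 60 without day 14 replicates 7 and 1, 56 and 73 without day 35 replicates 5 and 6, and 76 and 77 without day 14 replicates 2 and 4. The genes named below as differing by sex passed with each of the 13 retinas left out in turn, except where said.

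Hsph1, a cofactor of the cytosolic HSP70 proteins, was at 150, 140 and 168 CPM in the day 35 males, against 68.7, 78.2 and 82 CPM in the day 35 females and 56 to 69.6 CPM at day 14. Its log2 fold change was 0.15 in females and 1.32 in males (difference 1.17, FDR 0.000122). Hspa8, the constitutive cytosolic HSP70, was at 1221, 1240 and 1314 CPM in the day 35 males, 709, 781 and 757 CPM in the females and 562 to 726 CPM at day 14 (difference 0.85, FDR 0.00108). Both genes show the same split, with the females of day 35 at or just above the day 14 range. Xbp1, a transcription factor of the unfolded protein response, was at 118, 110 and 138 CPM in the day 35 males and 61.9, 65.6 and 64.2 CPM in the females, against 50.2 to 58.3 CPM at day 14 (difference 0.94, FDR 0.000859).

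**Figure D4:**
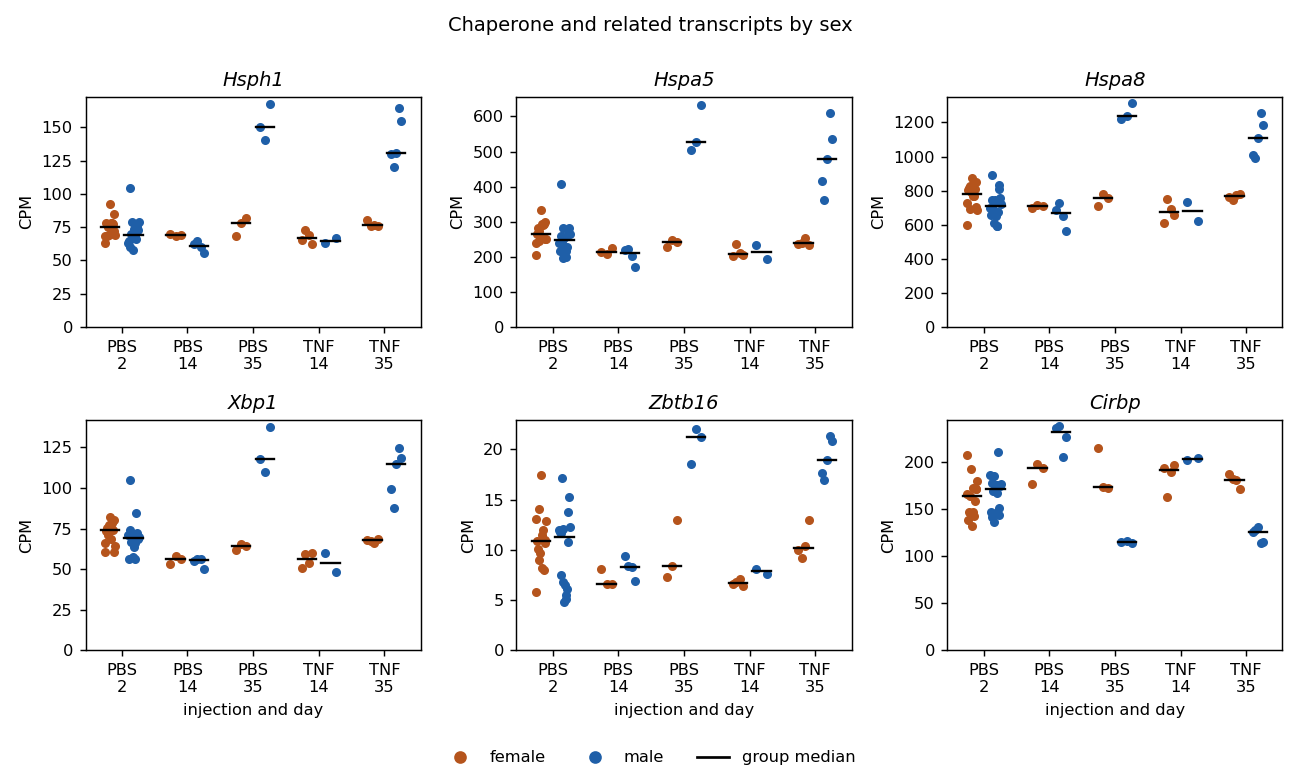
CPM (from 0) of Hsph1, Hspa5, Hspa8, Xbp1, Zbtb16 and Cirbp in PBS retinas of days 2, 14 and 35 and TNF retinas of days 14 and 35, 1 point per retina, with females in brown, males in blue and a black line at each median. The day 35 males stand above the day 35 females in the first 5 genes and below them in Cirbp, in both PBS and TNF retinas.

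ER chaperones and folding enzymes moved as Hspa5 did. The difference between the sexes was 0.75 for Creld2, a folding factor (FDR 0.00966), 0.92 for Manf, a secreted ER stress protein (FDR 0.00372), 0.82 for Hsp90b1, the ER form of HSP90 (FDR 0.00372), 1.00 for Calr, the lectin chaperone calreticulin (FDR 0.00197), and 0.84 for Pdia6, a disulfide isomerase (FDR 0.00354). In females the log2 fold changes of these 5 genes lay between −0.15 and 0.16, and in males between 0.67 and 1.04. Hsp90b1 was not called over both sexes (0.28, FDR 0.091), and the call of Calr over both sexes (0.47, FDR 0.0166) was lost without day 35 replicate 3 (FDR 0.0557). Pdia4, another isomerase, rose over both sexes (0.29, FDR 0.000427), and its difference did not pass (FDR 0.109). Nor did those of Dnajb1, a cofactor of HSP70 (FDR 0.0938), and Hspa1a, the heat-inducible HSP70 (FDR 0.541), which rose by 0.36 and 0.41 over both sexes. Hspa1a and its near-identical neighbour Hspa1b (0.43, FDR 0.00602) could have shared reads, and the difference called for Hspa1b (0.57, FDR 0.0326) was lost in 10 of 15 alternatives.

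The genes on the other side were Cirbp and Rbm3, RNA-binding proteins whose transcripts are known to be raised by mild cold. Cirbp was at 114, 116 and 114 CPM in the day 35 males, 214, 173 and 172 CPM in the day 35 females and 176 to 238 CPM at day 14. It was lower in those males than in every other retina (log2 fold change −0.99 in males, −0.02 in females, FDR of the difference 0.000859). Rbm3 did not pass over both sexes (−0.15, FDR 0.398) and had −0.53 in males and 0.28 in females (FDR of the difference 0.0144).

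Other genes parted by sex too. Dio2, the deiodinase that activates thyroid hormone, was at 124, 152 and 75.7 CPM in the day 35 males, 36.1, 32.9 and 29.6 CPM in the females and 21.8 to 28 CPM at day 14. Its difference of 1.93 (FDR 0.00544) was the largest of those named. Cdkn1a, the cell cycle inhibitor p21, had 1.39 (FDR 0.0144, but 0.0533 without day 35 replicate 4), Fosl2, an AP-1 subunit, 1.29 (FDR 0.000863), and Etv5 and Spry4, a target and an inhibitor of growth factor signalling, 0.85 (FDR 0.00197) and 0.82 (FDR 0.00226). Col4a4, a chain of basement membrane collagen, had −1.53 (FDR 0.000216) and Glp2r, the receptor for glucagon-like peptide 2, −1.07 (FDR 0.000104). In both of these genes the day 35 males were the lowest of the 13 retinas, and the day 35 females were above the day 14 females and overlapped the day 14 males. The endothelial gene Kdr changed by −0.76 in males and −0.27 in females (FDR of the difference 0.0144, but 0.0533 without day 35 replicate 4).

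The day 35 males and females also belong to separate series of mouse numbers, as said above, and batch and library records beyond that were not used here. The male of day 14 with the nearest mouse number, 59738, is replicate 5, and it had the lowest Hspa5 of all 13 retinas, 171 CPM. A retina of another day cannot separate sex from the series of mouse numbers at day 35. Which of these the day 35 split follows was not tested. In TNF retinas of day 35, Hspa5 was at 361 to 609 CPM in 5 males and 234 to 255 CPM in 4 females, in part the other eyes of the same mice. There too the sexes belonged to separate series of mouse numbers. At day 2 it was at 196.5 to 407 CPM in 16 male and 205 to 334 CPM in 15 female PBS retinas, so that the sexes overlapped.

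The glial genes mostly had the same sign in both sexes. Of 39 pan-reactive astrocyte, complement and MHC class I genes with a value in both, 34 had a negative log2 fold change in females and in males. The difference between the sexes passed for none of the 39 in limma, with 3 at an unadjusted p under 0.05. The list medians were −0.88 in females and −0.61 in males for pan-reactive, −0.64 and −0.68 for complement, and −0.45 and −0.68 for MHC class I genes. With females alone limma called 7 genes in all, with 2 of 11 pan-reactive, 0 of 16 complement and 0 of 11 MHC class I genes among them. With males alone it called 1316 genes, with 6 of 11, 5 of 16 and 8 of 11 genes of these lists.

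**Figure D5:**
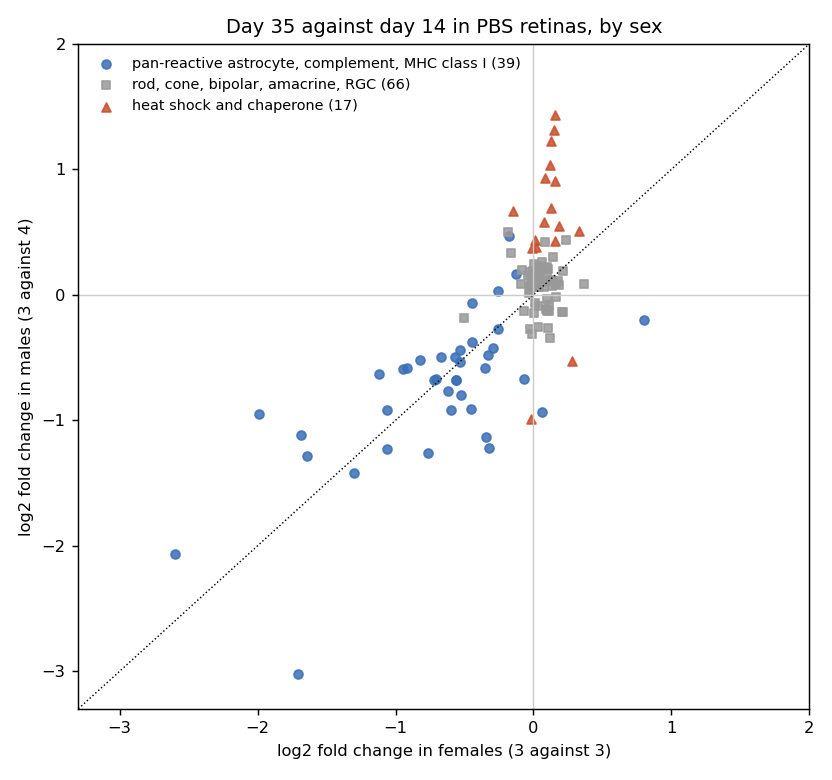
Log2 fold change between day 35 and day 14 in females (horizontal axis, 3 against 3 retinas) and males (vertical axis, 3 against 4), 1 point per gene, with a dotted line of equal change. The day 14 males include both eyes of 1 mouse. Of the 17 genes of the heat shock and chaperone list (triangles), which includes Cirbp and Rbm3, 15 have a higher value in males. Of 39 pan-reactive, complement and MHC class I genes (circles), 34 are below 0 in both sexes.

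The unfolded protein response of the ER acts through a known promoter element, and it is shown because 5 of the genes that parted by sex hold it. The ER stress response element, searched as CCAAT, 9 free bases and CCACG on both strands in the same 250 bases, was in 0.113% of all RefSeq promoters. Of 12 genes of the heat shock and chaperone list with a RefSeq promoter 3 held it, Hspa5, Hsp90b1 and Creld2. Of the genes added for their difference by sex, Calr and Pdia6 held it. The heat shock element (GAA, TTC and GAA, or TTC, GAA and TTC, each part 2 free bases from the next) was in 0.466% of promoters and, among the chaperone genes, in the shared promoter of Hspd1 and Hspe1. The ER stress matches, 1 of the 2 in Hsp90b1, stand in capitals, 5′ to 3′ on the strand of each gene: Hspa5 at chr2:34771995-34772073 (plus strand), Hsp90b1 at chr10:86705608-86705686 (minus), Calr at chr8:84847045-84847123 (minus), Pdia6 at chr12:17266461-17266539 (plus) and Creld2 at chr15:88819490-88819568 (plus). In Calr and Creld2 the match reads as the reverse complement. Most genes of the list do not hold these letters in this window, which says nothing about what controls them.
Hspa5: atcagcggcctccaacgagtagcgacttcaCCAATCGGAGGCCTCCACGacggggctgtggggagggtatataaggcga
Hsp90b1: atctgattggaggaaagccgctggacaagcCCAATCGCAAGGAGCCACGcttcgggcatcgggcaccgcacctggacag
Calr: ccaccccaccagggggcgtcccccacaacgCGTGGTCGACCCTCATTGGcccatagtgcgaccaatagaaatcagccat
Pdia6: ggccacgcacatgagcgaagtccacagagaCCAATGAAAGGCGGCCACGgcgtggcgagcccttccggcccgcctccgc
Creld2: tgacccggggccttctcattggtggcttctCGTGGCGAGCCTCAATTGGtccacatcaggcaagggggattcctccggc

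Targets of the glucocorticoid receptor rose in 6 of 15 cases and fell in none (median 0.17). The list median was 0.09 in females and 0.25 in males. The day 35 sums were 845 to 861 CPM in females and 925 to 974 CPM in males. The difference between the sexes had an unadjusted p under 0.05 in limma for 7 of the 15 genes, and 1 passed. Zbtb16, a transcription factor strongly induced by glucocorticoids, was at 6.57, 8.11 and 9.4 CPM at day 14 and 7.32, 15.8 and 22.1 CPM at day 35 (0.95, SE 0.14, FDR 0.000157). The day 35 males were at 18.6, 22.1 and 21.2 CPM and the females at 7.32, 8.4 and 13 CPM, and the difference between the sexes had an FDR of 0.104. Fkbp5, a chaperone of the receptor, rose by 0.40 (FDR 0.000158) and Klf9, a transcription factor, by 0.23 (FDR 0.00542), the latter by 0.24 in females and 0.23 in males and without overlap between the days. Tsc22d3, which encodes the glucocorticoid-induced leucine zipper, was above all day 14 retinas in all 6 day 35 retinas but did not pass (0.20, FDR 0.0538). It passed in 12 of 31 alternatives, among them edgeR (FDR 0.0254) and DESeq2 (FDR 0.00528). With all 44 PBS retinas 2 genes of this list were called as higher.

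Circadian genes had few calls. Of 19 tested, Arntl, the BMAL1 gene (0.18, FDR 0.00564), Cry1, a repressor of the clock (0.21, FDR 0.00525), and Nfil3, a clock output repressor (0.34, FDR 0.0143), rose and none fell, with a median over the list of 0.00. Without day 35 replicate 1, the call of Nfil3 was lost (FDR 0.0535). Over the alternative fits Arntl ranged from 0.05 to 0.31 and Nfil3 from 0.03 to 0.64. Both calls were lost with females alone and kept with males alone. The difference between the sexes had an unadjusted p under 0.05 in limma for 9 of the 19 circadian genes, and 1 gene passed. Of 18 immediate early genes Fosl2 and Nr4a1 rose and Junb and Egr2 fell, and each of these calls was lost without any 1 of 5 to 7 retinas. In a fit with a term for the fibroblast list, 1 gene of this list was called as higher and 0 as lower. Of 16 cholesterol synthesis genes 2 fell, among them Insig1, a sterol sensor (−0.23, FDR 0.0331), which was not called without any 1 of 8 retinas. No gene passed in limma among 13 mitochondrially encoded and 10 iron and heme genes (0 and 2 at an unadjusted p under 0.05, with 0 and 1 called by DESeq2). Among 10 cell cycle genes Cdkn1a was called, and among 11 genes of postnatal maturation and ageing Edn2. Of 8 cornea, ciliary and iris genes Zic1, a transcription factor, was called (−0.81, FDR 0.0205, lost without day 35 replicate 3 or 5 and with a term for the fibroblast list).

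TNF retinas gave the same comparison in 6 retinas at day 14 and 9 at day 35, largely the other eyes of the same mice. There limma called 1453 genes as higher at day 35 (7.76%) and 1755 as lower (9.37%). Of the 1117 genes that rose in PBS retinas 833 were also called as higher in TNF retinas, and of the 1205 that fell 847 were also called as lower. A direct test of the difference between the time contrasts of PBS and TNF retinas called 0 genes in limma. Its smallest FDR was 0.945, and 579 genes had an unadjusted p under 0.05. Under other filters, scalings and covariates in limma it also called 0 genes, with 373 to 1061 at that p, and no other tool was run for it. Edn2 changed by −1.67 in TNF retinas and by −2.67 in PBS retinas, Gfap by −0.92 and −1.20, C4b by −1.57 and −1.46, and Hspa5 by 0.63 and 0.82. The median of the fibroblast list was −1.88 in TNF and −0.94 in PBS retinas.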

How the data were processed

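Libraries of retinal polyA RNA were aligned with STAR 2.7.9a and counted with featureCounts (Subread 2.0.1) on mm10, per the submitters' processing notes and the study's methods. The values used are the raw gene counts deposited by the authors, and the strand setting and annotation release are not given in the sources used here. Named genes whose exons overlap a gene on the opposite strand, such as Hspa1a (564 bases), H2-Q4 (496) and Hsp90b1 (415), could thus share reads with it. Day 35 and day 14 were compared in R 4.3.3 with limma 3.58.1 (voom, TMM, terms for group and sex) on the 28 PBS and TNF wild-type retinas of batch 1, with the mouse as a block (correlation 0.2187 from duplicateCorrelation, statmod 1.5.0) since eyes of 1 mouse are shared. Genes were filtered with filterByExpr (minimum count 10, total 15). Day by sex was fitted on the 13 PBS retinas without a block. edgeR 4.0.16 and DESeq2 1.42.0 served as alternatives. Fold changes are on the voom log2 scale, and a filter on low counts left 18721 of 37315 genes. CPM carries sampling error, so levels near 0.332 CPM rest on about 10 reads. Matching of both eyes of mice is from the labels. The retinas and gene lists were chosen with earlier results of these data known. By rule, genes named had a mean of at least 1 CPM and were the 10 higher and 10 lower with the smallest p, the 5 of each with the largest change, and in each list the first 2 tested and up to 4 called members. The floor was not applied to list members, so Pax2, H2-DMb1, Cst7, Itgax, Mrc1, Ccr2, Hba-a2 and Egr2 are below it. Outside the rule, Socs3, Bdnf, Il6st, B2m, Gbp2, Creld2, Hsp90b1, Manf, Amigo2, Hspd1, Hspe1, Rbm3 and the genes with the smallest p for day by sex were chosen after their values were seen. Code for the fits was tested on simulated data. No pair of the 13 libraries agreed within sampling noise. A few genes are not reported here.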

Additional observations from a re-analysis of the deposited data

Results flagged for a closer look

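Within groups of 6 or 7 retinas, single retinas stood apart by Dixon's test at its 95% critical value in 19 of 340 groups tested (5.59%), close to the 1 in 20 that chance gives. Of these, 4 were in replicate 1 and 3 in replicate 5 of day 14. In replicate 1 of day 14, C4b (67 CPM, next 42.2), H2-Q4 (8.14 CPM) and Vwf (25.5 CPM) were high and the bipolar cell sum (1610 CPM) was low. In replicate 5, Fgf2 (15.2 CPM) and Socs3 (9.78 CPM) were high and Hspa5 (171 CPM) was low. Other day 14 values were Tgm1 in replicate 2 (11.9 CPM), Steap4 in replicate 4 (1.41 CPM), Pcare (378 CPM) and the lens sum (54.9 CPM) in replicate 6, and the neutrophil sum in replicate 7 (0.772 CPM). At day 35 they were H2-Ab1 (1.5 CPM), Arr3 (467 CPM) and Nfil3 (20.2 CPM) in replicate 1, Col1a1 in replicate 3 (1.11 CPM), the lens sum in replicate 4 (76.3 CPM), and Socs3 (3.87 CPM) and the pericyte sum (841 CPM) in replicate 6.

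The change between the days differed between the sexes for 119 genes, 23 of them named here. As the log2 change in males minus that in females, the ER and heat shock genes had 1.28 for Hspa5, 1.17 for Hsph1, 1.00 for Calr, 0.94 for Xbp1, 0.92 for Manf, 0.85 for Hspa8, 0.84 for Pdia6, 0.82 for Hsp90b1, 0.75 for Creld2, 0.57 for Hspa1b and 0.36 for Hspd1. The cold-induced genes Cirbp and Rbm3 had −0.97 and −0.81. Further genes were Dio2 with 1.93, Cdkn1a with 1.39, Fosl2 with 1.29, Etv5 with 0.85, Spry4 with 0.82 and Ddit3, a stress-induced transcription factor, with 0.41. Below 0 were Col4a4 with −1.53, Glp2r with −1.07, Slco1a4 with −0.72 and Kdr with −0.50. The calls of Ddit3, Hspd1, Slco1a4 and Hspa1b were lost without any 1 of 10 to 12 retinas.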

How the results depend on the processing

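The count of 2322 genes was 823 when all 44 PBS retinas of batch 1 were fitted (the mouse block could not be fitted there), 1224 with the 2 eyes of 1 mouse summed, 1349 without either eye of that mouse (added after the data were seen), 1316 with males alone and 7 with females alone. With single retinas left out it ranged from 1592 to 2586, lowest without day 35 replicate 3. Without the replicate block for the mouse it was 2449. The eyes are paired by mouse from the labels. The other alternatives (filters, scalings, covariates, edgeR, DESeq2 and the 13 retinas alone) stayed within 1.5 times. The 119 genes that differed by sex were 43 to 143 with single retinas left out, 157 with edgeR and 424 with DESeq2. With females alone, Calr had −0.054 and Fosl2 −0.059, the reverse of both sexes together. Of 108 named called genes, 40 passed in every alternative other than females alone. The list of T and B cell genes gave no value with a mean CPM of at least 1, which left none of its genes. The causes were not tested. Genes under about 0.332 CPM rest on fewer than 10 reads.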
